A study of Mus musculus with 24 samples.

Results

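The genes of 6 CXC chemokines and of 1 receptor were examined in mouse breast cancer tumors and cell lines: the neutrophil attractants Cxcl1, Cxcl2 and Cxcl3, the T cell attractants Cxcl10 and Cxcl16, and Cxcl12 with its receptor Cxcr4. They were chosen by gene symbol, and 7 of 7 symbols were found among the 12091 genes of the table. RNA had been sequenced from 24 samples in 4 experiments, each with 3 control samples and 3 samples in which pleiotrophin (PTN), a secreted heparin-binding cytokine, was blocked or depleted. 4T1 tumors grew from a mouse mammary carcinoma line implanted orthotopically in female BALB/c mice at 8 wk of age. MMTV-PyMT tumors arose in female FVB/N mice carrying the polyoma middle T antigen under a mammary tumor virus promoter, and treatment began at 8 wk of age. Mice of both tumor models received the control mouse IgG C44 or the anti-PTN antibody 3B10, each at 15 mg/kg and 2 times a week. E0771 is a C57BL/6 mammary adenocarcinoma line, and E0771-LG was derived from a lung metastasis of it. Cultured cells of both lines carried an shRNA against PTN (E0771shPTN and E0771-LGshPTN) or a vector with a sequence against EGFP (E0771shCtrl and E0771-LGshCtrl), and all were kept in 3 µg/ml puromycin for 6 wk. A single shRNA construct was used and each population was selected on its own, so effects of selection or of other targets of the construct cannot be told apart from those of PTN loss.

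CXCL1, CXCL2 and CXCL3 share an ELR motif near their start and recruit neutrophils through the receptor CXCR2, and their genes are textbook targets of NF-kB. CXCL10 is induced by interferons and attracts activated T cells and NK cells through CXCR3. CXCL12 holds CXCR4-bearing leukocytes and progenitors in stroma and bone marrow, whereas CXCL16 is made as a membrane-anchored protein that ADAM10 can release and that binds CXCR6 on T cells.

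For the MMTV-PyMT tumors and the cells (18 samples) the values were log2 CPM (reads per 1 M reads), and whole reads could be recovered from them, between 15.63 and 21.12 M per sample. Each MMTV-PyMT tumor with C44 had more reads (18.76 to 19.25 M) than each with 3B10 (16.26 to 18.44 M), and the part of this difference in the results was not tested. The 4T1 values were on another scale, with no steps of whole reads. Their difference from the MMTV-PyMT values fell with gene length (slope −0.93 per log2 unit of length over 11557 genes), whereas the same slope was −0.02 for E0771 and −0.07 for E0771-LG cells. They were therefore read as normalized for gene length, with unknown depth, and were compared only with each other. Groups were compared with limma on the log2 values, and a gene was called changed at a Benjamini-Hochberg adjusted p under 0.05 over all genes tested. A gene was tested if 3 or more samples of the comparison held it at 1 or more, counted off the log scale and from the lowest value upward. The methods call the replicates biological and do not say whether the cell samples were separate cultures, so their p-values measure the spread between these samples only.

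Ptn, the target of the shRNA (ENSMUSG00000029838, chromosome 6 from 36714929 to 36810220, minus strand, GRCm38), was lower in every shPTN sample. It stood at 2.90, 2.18 and 2.28 log2 CPM in E0771shCtrl replicates 1 to 3 and at −0.63, 0.25 and 0.53 in E0771shPTN. In E0771-LGshCtrl it stood at 3.65, 4.51 and 3.74, and in E0771-LGshPTN at 1.42, 0.98 and 1.38. The knockdown thus left 18.9% of the control level in E0771 and 15.3% in E0771-LG cells, with no overlap between groups in either line (limma, adjusted p = 0.00159 and 6.3e-05). In the tumors the antibody acts on the protein, and Ptn mRNA is no check of it. Ptn was higher in E0771-LGshCtrl than in E0771shCtrl by 1.51 (SE 0.28, adjusted p = 0.0012 by limma).

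Chemokine genes were called between the cell lines and with PTN depletion in E0771 cells, but not in tumors. Against E0771shCtrl cells, 4 of the 5 chemokine genes tested were higher in E0771-LGshCtrl cells, where 54.5% of 10411 genes were called and 19.2% were called higher. Cxcl2 and Cxcl16 were below 1 CPM in each E0771shCtrl sample, so they entered that test through E0771-LG alone and had to differ, and nothing is read from the count. With PTN depletion, 2 of the 3 genes tested in E0771 cells fell (Cxcl1 and Cxcl10), where 20.6% of 10394 genes were called and 11.7% were called lower. A joint limma fit of all 24 samples called neither gene. In E0771-LG cells 0 of 5 were called by limma although 46.4% of 10405 genes were, and 0 of 5 passed an unadjusted p under 0.05 (54.1% of all genes) or voom's test on the recovered reads. Only a replicate block in limma called 2 of them, Cxcl3 and Cxcl10. In 4T1 tumors limma called 0 of 7 genes and 0 of 11467 in all (0%), with 1 of 7 and 719 in all at an unadjusted p under 0.05 (6.27%). In MMTV-PyMT tumors limma called 0 of 4 genes tested and 0 of 11361 in all (0%), with 0 of 4 and 307 in all at an unadjusted p under 0.05 (2.70%), and voom on the recovered reads called 0 of 4. The knockdown effect differed between the lines for 1 of 5 genes, Cxcl1, where it did so for 34.0% of 10600 genes. This call was lost in the joint fit and with voom. The comparison between the lines shares its shCtrl samples with both knockdown comparisons, so their values are not independent and are only set side by side.

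**Figure D1:**
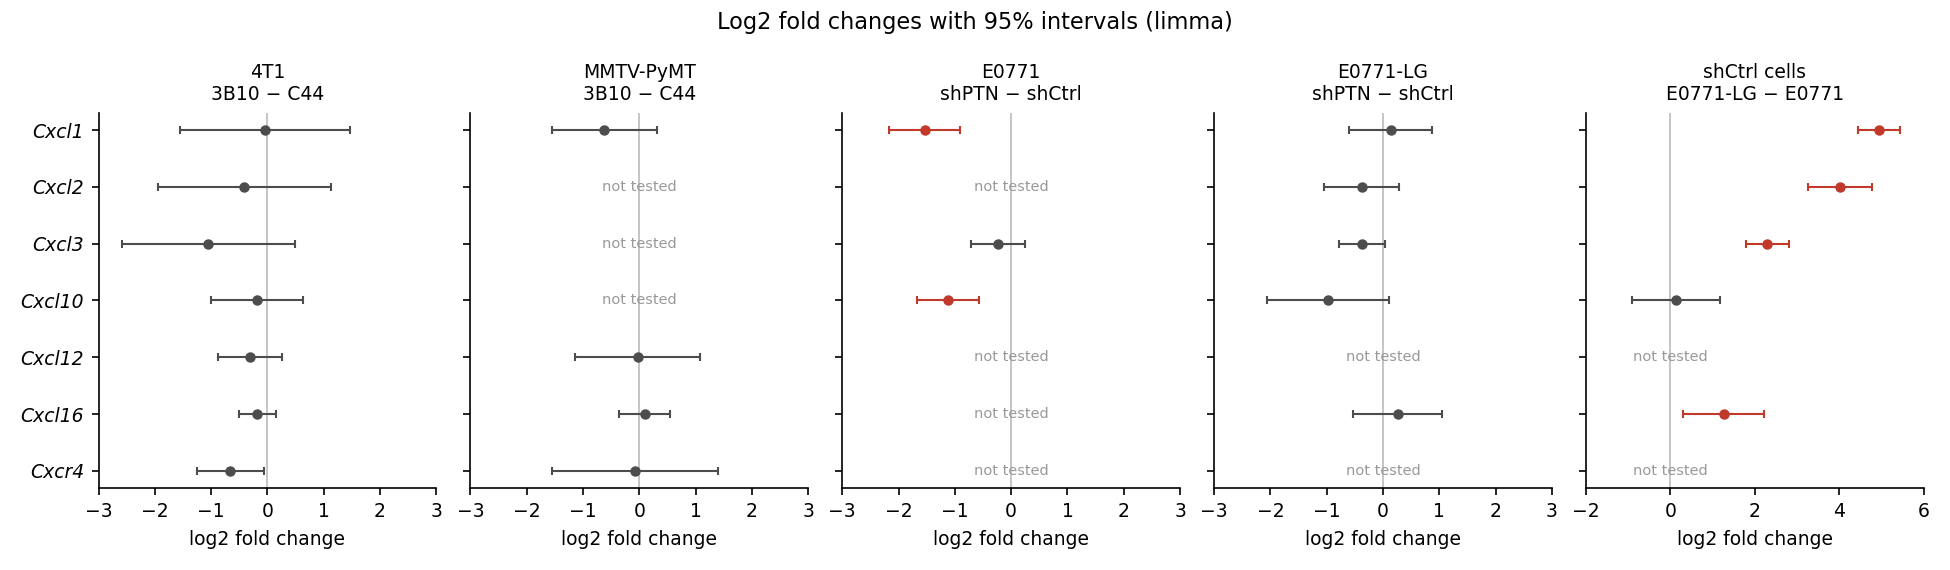
Log2 fold changes (x axis) of the 7 genes with 95% intervals in the 5 comparisons between groups of 3 samples, red where the limma adjusted p was under 0.05 and marked where the gene did not pass the filter. Cxcl1 and Cxcl10 lie below 0 in E0771 cells with shPTN. In E0771-LGshCtrl against E0771shCtrl cells (wider x axis) Cxcl1, Cxcl2, Cxcl3 and Cxcl16 lie above 0, and the interval of Cxcl10 holds 0. Cxcl2 and Cxcl16 entered that test through E0771-LG alone, so nothing is read from their color or intervals.

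Cxcl1 (ENSMUSG00000029380), Cxcl2 (ENSMUSG00000058427) and Cxcl3 (ENSMUSG00000029379) lie together on the plus strand of mouse chromosome 5 in GRCm38, from 90891241 to 90893115, from 90903871 to 90905938 and from 90786103 to 90789600. Because all 3 genes stood higher in E0771-LG cells, the stretch from 130 to 31 bases before each RefSeq transcription start (build GRCm38.p6) is shown, 5′ to 3′ on the plus strand. These are chr5:90891115-90891214 for Cxcl1, chr5:90903769-90903868 for Cxcl2 and chr5:90785971-90786070 for Cxcl3. Capitals mark matches to GGGANNTTCC, a kB motif recognized by NF-kB proteins, searched on both strands, and in each gene the matches of the 2 strands overlap.
Cxcl1: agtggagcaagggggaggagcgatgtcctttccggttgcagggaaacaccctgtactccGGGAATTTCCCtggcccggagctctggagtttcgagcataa
Cxcl2: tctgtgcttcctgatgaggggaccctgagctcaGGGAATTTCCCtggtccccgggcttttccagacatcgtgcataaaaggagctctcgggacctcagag
Cxcl3: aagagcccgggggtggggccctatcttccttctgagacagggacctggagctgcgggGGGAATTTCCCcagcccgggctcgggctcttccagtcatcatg
The marked letters are the same 11 bases, GGGAATTTCCC, in all 3 promoters and begin 71 (Cxcl1), 97 (Cxcl2) and 73 (Cxcl3) bases before the start. The motif was found in the 250 bases upstream of 1.21% of 32851 mouse RefSeq promoters. A match describes letters and is not a measured binding site. How reads that fit more than one of these related genes were counted is not given in the sources used here.

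Cxcl1, a neutrophil attractant of epithelial and stromal cells, was the most abundant of the 7 mRNAs in E0771-LG cells. It stood at 3.60, 4.22 and 3.91 log2 CPM in E0771shCtrl replicates 1 to 3 (208, 380 and 250 reads) and at 8.66, 9.29 and 8.61 in E0771-LGshCtrl (6985, 12291 and 7281 reads). The lowest E0771-LG sample lay more than 4 log2 units above the highest E0771 sample. The change was 4.94 (SE 0.22, adjusted p = 2.47e-06 by limma), a 30.8-fold higher level and the 41st largest rise of 10411 genes. By mean level Cxcl1 moved from place 8322 of 12091 genes in E0771shCtrl to place 297 in E0771-LGshCtrl. The median change of all genes in this comparison was −0.15, and median-of-ratios scaling moved it by 0.15, so that the calls went from 2004 higher and 3672 lower to 2854 higher and 2828 lower (2830 and 2663 with quantile normalization). Relative to that median, Cxcl1 changed by 5.09.

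Cxcl2, a neutrophil attractant made mostly by activated myeloid cells, was scarce in E0771 cells. It stood at −0.25, 0.01 and −0.41 log2 CPM in E0771shCtrl (14, 20 and 12 reads) and at 3.38, 4.51 and 3.51 in E0771-LGshCtrl (179, 447 and 212 reads). The difference of the means was 4.02, or 4.17 relative to the median of all genes. Because Cxcl2 passed the filter through E0771-LG alone, no test is read from it. With a pseudocount of 1, which shrinks the changes of low genes, it was 3.03. Cxcl3, the third neutrophil attractant, stood at 5.02, 4.31 and 4.69 log2 CPM in E0771shCtrl and at 6.71, 7.38 and 6.81 in E0771-LGshCtrl, without overlap. Its change was 2.29 (SE 0.22, adjusted p = 8.07e-05 by limma), a 4.90-fold higher level, or 2.44 relative to the median. Replicate 2 of E0771-LGshCtrl was the highest of its group for all 3 genes.

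Between genes, levels were compared per kb of the exons of protein-coding transcripts, a length chosen after seeing the data. The length used first, over the exons of all transcripts, holds retained introns and equals the whole gene span for Cxcl1, Cxcl2, Cxcl3 and Cxcl10, and which length fits the reads is not given in the sources used here. In E0771shCtrl cells Cxcl3 (4.65 ± 0.35 log2 CPM per kb, SD, n = 3), Cxcl10 (4.04 ± 0.47) and Cxcl1 (3.98 ± 0.31) lay far above Cxcl2 (−1.11 ± 0.21) and Cxcl16 (−2.02 ± 0.24). In E0771-LGshCtrl cells Cxcl1 led with 8.92 ± 0.38, followed by Cxcl3 (6.94 ± 0.36), Cxcl10 (4.17 ± 0.84), Cxcl2 (2.91 ± 0.62) and Cxcl16 (−0.76 ± 0.06), and of these neighbours only Cxcl10 and Cxcl2 lay within their spread. The order in E0771-LG was the same with the first length, but that of Cxcl3, Cxcl10 and Cxcl1 in E0771 was not. With the first length Cxcl10 lay above Cxcl2 in each E0771-LGshCtrl sample (3.08 against 2.33, 4.58 against 3.47 and 3.16 against 2.47). Within single samples, Cxcl1 differed from Cxcl3 by a mean of −0.67 in E0771shCtrl with this length and by 0.14 with the first one, so their order there is open. In E0771-LGshCtrl the same difference was 1.98 and 2.79, above 0 in 3 of 3 samples with either length.

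**Figure D2:**
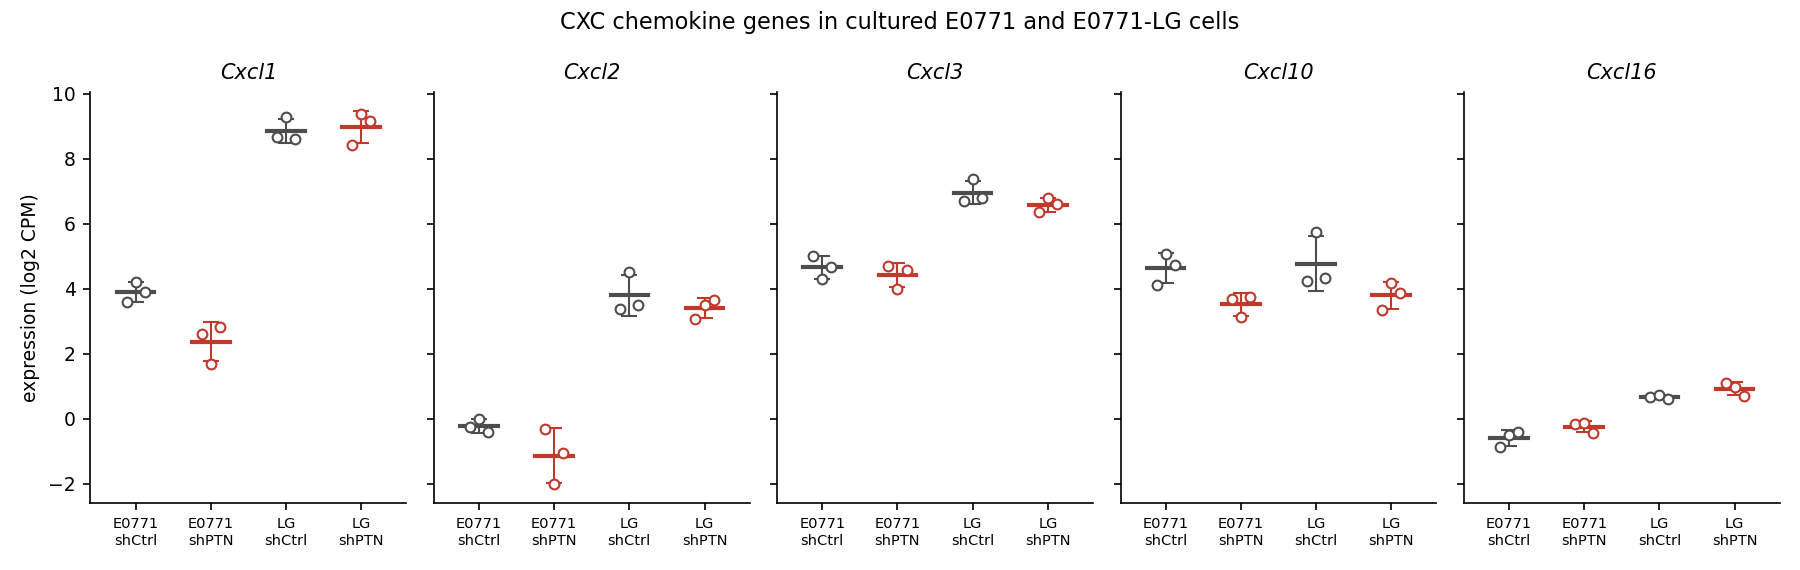
Expression (log2 CPM) of the 5 chemokine genes detected in cultured cells, with 1 point per sample, a bar at the mean and whiskers of 1 SD (n = 3 per group). Cxcl1, Cxcl2 and Cxcl3 are higher in each E0771-LG sample (LG) than in each E0771 sample, and Cxcl1 with shPTN is lower in E0771 cells (1.70 to 2.82 against 3.60 to 4.22) but overlaps shCtrl in E0771-LG cells.

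PTN depletion lowered Cxcl1 in E0771 cells but not detectably in E0771-LG cells. With shPTN it stood at 2.60, 1.70 and 2.82 log2 CPM in E0771 (117, 58 and 110 reads) and at 8.43, 9.37 and 9.17 in E0771-LG (7297, 11918 and 10031 reads). Each E0771shPTN sample was below each E0771shCtrl sample, whereas in E0771-LG the range with shPTN enclosed that of shCtrl. In E0771 Cxcl1 fell by 1.54 (SE 0.29, adjusted p = 0.00432 by limma), to 34.5% of shCtrl. In E0771-LG the change was 0.13 (SE 0.30, adjusted p = 0.74 by limma), with a 95% interval from −0.60 to 0.87. The difference between these effects, tested as an interaction term over the 12 cell samples, was 1.67 (SE 0.47, 95% interval 0.64 to 2.70, adjusted p = 0.0194 by limma). Both calls were lost in a joint limma fit of all 24 samples, where the adjusted p was 0.0528 for the fall in E0771 (0.00171 to 0.0528 over the alternatives that keep every sample) and 0.0854 for the interaction (0.00756 to 0.0854). The interaction was also lost with voom (adjusted p = 0.0597).

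The other neutrophil attractants showed no call with shPTN in the separate limma fits, and of the alternatives only a replicate block called Cxcl3 in E0771-LG cells (−0.38, limma adjusted p = 0.0141, 0.0141 to 0.665 over the alternatives). Cxcl3 stood at 4.70, 4.00 and 4.59 log2 CPM in E0771shPTN and at 6.36, 6.80 and 6.60 in E0771-LGshPTN, overlapping shCtrl in both lines. Its changes were −0.24 (SE 0.22, adjusted p = 0.469 by limma) in E0771 and −0.38 (SE 0.18, adjusted p = 0.119) in E0771-LG cells, and leaving out 1 sample moved them between −0.42 and −0.026 and between −0.51 and −0.17. Cxcl2 was below the filter in E0771, with 15, 4 and 7 reads in E0771shPTN, so that 1 of 3 samples lay within the range of E0771shCtrl. In E0771-LGshPTN it stood at 3.08, 3.52 and 3.66 log2 CPM, and the fold change was −0.38 (SE 0.30, limma adjusted p = 0.314), or −0.60 to −0.026 with 1 sample left out. The difference between the lines was −0.14 for Cxcl3 (95% interval −0.84 to 0.57) and 0.53 for Cxcl2 (−0.72 to 1.77). With a pseudocount of 1 that of Cxcl2 turned to −0.03, and leaving out 1 sample moved it between 0.088 and 0.93. Within single samples, Cxcl1 lay below Cxcl3 per kb in 3 of 3 E0771shPTN samples, with either length, by a mean of −1.96 (coding transcripts) or −1.16 (first length) in log2 CPM per kb.

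Cxcl10 (ENSMUSG00000034855, chromosome 5 from 92346638 to 92348889, minus strand), the interferon-induced ligand of CXCR3, did not differ detectably between the shCtrl lines and fell with shPTN in E0771. Its upstream sequence is shown because it differs from that of the neutrophil attractants. The stretch from 230 to 31 bases before its start is chr5:92348920-92349119 in GRCm38.p6, given 5′ to 3′ on the minus strand. Capitals mark, in order, matches to GAAANNGAAA (the core of an interferon-stimulated response element), to GGGANNTTCC and to TGANTCA (an AP-1 motif), which were searched on both strands and do not overlap.
Cxcl10: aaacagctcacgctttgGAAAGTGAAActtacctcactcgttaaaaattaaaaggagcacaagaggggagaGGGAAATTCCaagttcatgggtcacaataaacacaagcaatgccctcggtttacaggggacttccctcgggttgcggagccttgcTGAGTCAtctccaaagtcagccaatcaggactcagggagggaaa
The response element letters begin 213, the kB letters 159 and the AP-1 letters 74 bases before the start. GAAANNGAAA was found in the 250 bases upstream of 2.98% and TGANTCA of 6.75% of the 32851 promoters. Of the 6 genes with a promoter in the RefSeq table, GGGANNTTCC was found in 4, and neither GAAANNGAAA nor TGANTCA in Cxcl1, Cxcl2, Cxcl3, Cxcl12 or Cxcr4.

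Cxcl10 stood at 4.13, 5.06 and 4.74 log2 CPM in E0771shCtrl and at 3.67, 3.13 and 3.77 in E0771shPTN (301, 681 and 444 against 246, 157 and 212 reads). The groups did not overlap. Cxcl10 fell by 1.12 (SE 0.24, adjusted p = 0.0100 by limma), to 45.9% of shCtrl. This call was lost in the joint limma fit of 24 samples, where the adjusted p was 0.245 (0.00596 to 0.245 over the alternatives). In E0771-LGshCtrl Cxcl10 stood at 4.25, 5.75 and 4.34 (329, 1053 and 375 reads), and in E0771-LGshPTN at 3.36, 4.19 and 3.86 (217, 328 and 253 reads). These groups did not overlap either, but replicate 2 of shCtrl stood apart from the other 2, and the change of −0.97 (SE 0.45) was not called (adjusted p = 0.122 by limma, 95% interval −2.06 to 0.11). Of the alternatives only a replicate block called this change (limma adjusted p = 0.00293, 0.00293 to 0.171 over the alternatives), although replicate numbers did not pair the samples. Leaving out 1 sample moved it between −1.24 and −0.49. The effect did not differ detectably between the lines (difference 0.15, 95% interval −1.06 to 1.36). Between the shCtrl lines the change was 0.14 (SE 0.44, adjusted p = 0.812 by limma), or 0.28 relative to the median of all genes. Its 95% interval of −0.91 to 1.18 holds changes of more than 2-fold, and leaving out 1 sample moved it between −0.35 and 0.40.

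Interferon response genes, like Cxcl10, were among those lower when PTN was depleted in E0771 cells. Of 13 list genes tested, 9 were lower and 0 higher in E0771shPTN (median change −0.82, against −0.03 over all genes), where 11.7% of all genes were called lower and 8.9% higher. In E0771-LGshPTN 7 were lower and 0 higher (median −1.53 against 0.05), where 22.1% of all genes were called lower and 24.3% higher. Gbp2, an interferon-induced GTPase, fell by 1.64 in E0771 and by 2.80 in E0771-LG cells, and Oasl2, a relative of the viral RNA sensor OAS, fell by 1.91 and by 2.39 (adjusted p between 0.000121 and 0.0182 by limma). Ifit1, which binds viral RNA, changed by −1.20 and −2.05. The mean of the list was 3.85, 4.62 and 4.30 log2 CPM in E0771shCtrl and 3.47, 3.05 and 3.56 in E0771shPTN. In E0771-LG cells it was 3.42, 5.06 and 3.71 with shCtrl and 2.06, 2.80 and 2.83 with shPTN, and the high sample was again replicate 2. Between the shCtrl lines 1 list gene was higher (Irf1, outside the naming rule and chosen after its values were seen) and 3 were lower, among them Irf9 and Gbp2, with 6 above and 7 below 0, where 19.2% of all genes were called higher and 35.3% lower. The interaction called 1 list gene of 13, Gbp2 (−1.16, adjusted p = 0.0485 by limma), where 18.3% of all genes were called higher and 15.7% lower.

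**Figure D3:**
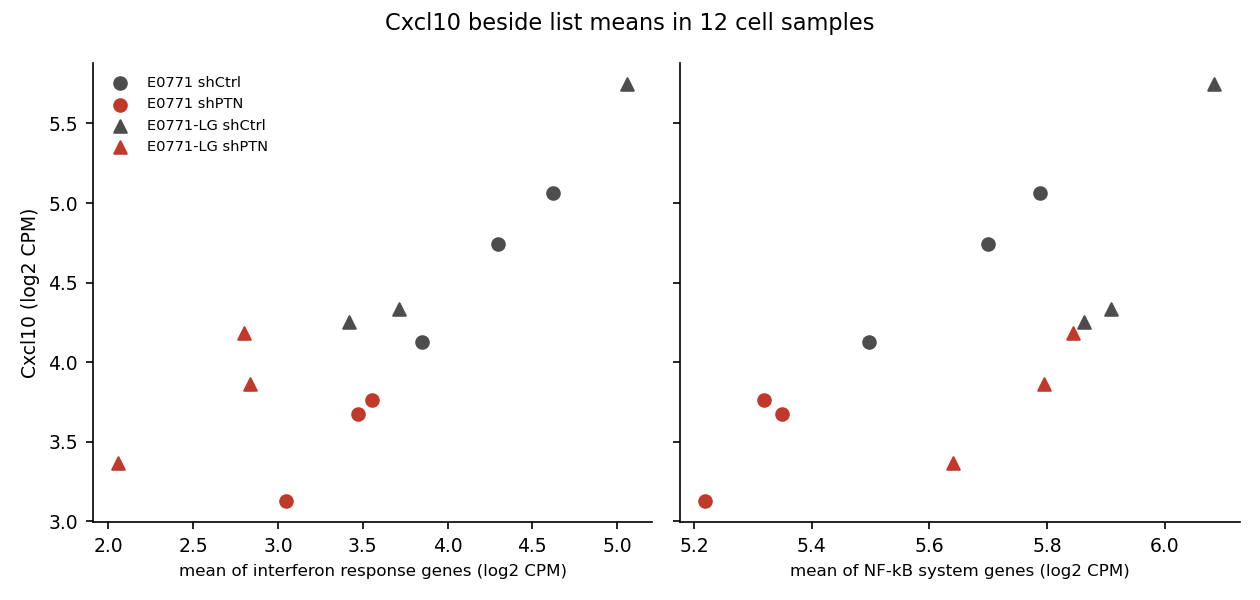
Cxcl10 (y axis, log2 CPM) against the mean of 13 interferon response genes (left) and of 14 NF-kB system genes (right, log2 CPM) in the 12 cell samples, with color for shCtrl or shPTN and shape for the line. The E0771-LGshCtrl sample at 5.75 is highest on each axis, and in each line the shPTN samples lie below the shCtrl samples in Cxcl10.

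Cxcl12 (ENSMUSG00000061353, chromosome 6 from 117168535 to 117181367, plus strand) and Cxcr4 (ENSMUSG00000045382, chromosome 1 from 128588199 to 128592293, minus strand) were not detected in cultured cells. Both had 0 reads in 12 of 12 cell samples, which allows up to 0.142 to 0.192 CPM per sample (3 reads, for counting error only). Neither could be tested there. Among genes listed as CXCR4 signalling partners or as enzymes that process CXCL12 or CXCL16, 11 of 13 passed the filter in the cells. With shPTN 0 were called in E0771 by limma (4 above and 7 below 0), while in E0771-LG 1 was higher and 4 were lower. Over all genes 20.6% were called in E0771, and 24.3% were called higher and 22.1% lower in E0771-LG, so the lines differ in this without regard to the list. Adam10, the protease that releases CXCL16, fell by 0.44 and Hif1a, a hypoxia-response factor, by 0.55 in E0771-LGshPTN (adjusted p = 0.00642 and 0.0028 by limma). Both effects differed from those in E0771 (interaction −0.46 and −0.47, adjusted p = 0.0122 and 0.0238 by limma), as did that of Grk2, a kinase that desensitizes receptors (0.34, adjusted p = 0.0303). Grk2 was not called with shPTN in either line. Of 11 list genes the interaction called 1 higher and 2 lower, against 18.3% and 15.7% of all genes, so nothing is read from the count. Between the shCtrl lines 1 was higher and 5 were lower in E0771-LG (19.2% and 35.3% of all genes), among the latter Arrb1 (−1.56) and Arrb2 (−0.79), which encode beta-arrestins.

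Cxcl16 (ENSMUSG00000018920, chromosome 11 from 70453983 to 70459984, minus strand), the ligand of CXCR6, was scarce in cultured cells. It stood at −0.86, −0.49 and −0.41 log2 CPM in E0771shCtrl (9, 14 and 12 reads) and at 0.67, 0.73 and 0.62 in E0771-LGshCtrl (27, 32 and 28 reads). The difference of the means was 1.26, or 1.41 relative to the median of all genes, and no test is read from it because Cxcl16 passed the filter through E0771-LG alone. It was 0.65 with a pseudocount of 1 and up to 1.69 over the other alternatives, and leaving out any 1 of the 6 samples lost its call. With shPTN it stood at −0.14, −0.13 and −0.44 in E0771 and at 1.11, 0.98 and 0.71 in E0771-LG. It overlapped shCtrl in both lines and was below the filter in E0771. Its change in E0771-LG was 0.26 (SE 0.36, adjusted p = 0.577 by limma), which turned to −0.22 with quantile normalization.

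NF-kB system genes, which encode the subunits, inhibitors and kinases of that pathway, were called in both directions. Of 14 tested, 0 were higher and 7 lower in E0771shPTN (median −0.33, against −0.03 over all genes, of which 8.9% were called higher and 11.7% lower). In E0771-LGshPTN 1 was higher and 4 were lower (median −0.25 against 0.05, with 24.3% and 22.1% of all genes). Between the shCtrl lines 6 were higher and 1 lower in E0771-LG (median 0.39 against −0.15, with 19.2% and 35.3% of all genes). Nfkbia, the inhibitor that NF-kB itself induces, fell by 0.56 in E0771shPTN, rose by 0.42 in E0771-LGshPTN and was higher by 1.05 in E0771-LGshCtrl than in E0771shCtrl cells. The effect on Nfkbia differed between the lines (interaction 0.98, SE 0.17, adjusted p = 0.000694 by limma). That on Nfkb1 differed in the other direction (interaction −0.40, adjusted p = 0.0321 by limma). Nfkbiz, a nuclear cofactor that NF-kB needs at some of its target genes, was higher by 1.64 in E0771-LGshCtrl (adjusted p = 7.46e-06 by limma). It fell with shPTN by 0.65 in E0771 and by 0.47 in E0771-LG cells. Relb, a subunit of the alternative pathway, fell by 1.02 in E0771shPTN and changed by −0.30 in E0771-LGshPTN, and Nfkb1 fell by 0.34 and by 0.74. The interaction called 3 of 14 genes higher and 2 lower, against 18.3% and 15.7% of all genes. In tumors 0 of 14 were called by limma in either model, with 7 above and 7 below 0 in each.

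The list of genes whose proteins set the stability of chemokine mRNA had calls in both directions. Of 7 tested, 4 were higher and 1 lower in E0771-LGshCtrl than in E0771shCtrl (median 0.70), where 19.2% of all genes were called higher and 35.3% lower. Zc3h12a, which encodes an RNase that degrades inflammatory mRNAs, was higher by 1.66 (adjusted p = 6.08e-05 by limma), and Zfp36l1, an AU-rich element binding protein, by 0.98. With shPTN 1 of 7 was higher in E0771 (Zfp36l1, 0.51) and 2 were lower in E0771-LG (Zfp36l2, −0.33, and Elavl1, −0.29), with medians of −0.09 and −0.01, against the shares of all genes given above for these comparisons. In tumors 0 of 7 were called by limma in either model, with medians of −0.19 (4T1) and −0.03 (MMTV-PyMT).

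Most other genes of the CXC and CX3C system that were in the table did not pass the filter in the cells, and the levels of those not in the table are unknown. Of 20 listed, 9 were in the table and 2 passed the filter in cells. Ackr3, a scavenger receptor of CXCL12, fell by 0.39 in E0771shPTN (SE 0.12, adjusted p = 0.0414 by limma) and was lower in E0771-LGshCtrl than in E0771shCtrl (−0.45, adjusted p = 0.0268). Cx3cl1, a membrane-anchored chemokine for monocytes and T cells, was higher by 0.56 in E0771-LGshCtrl (adjusted p = 0.00777 by limma). With shPTN it fell by 0.42 in E0771-LG (adjusted p = 0.0195 by limma) and was not called in E0771 (0.30, adjusted p = 0.206), with an interaction of −0.72 (SE 0.20, adjusted p = 0.0141).

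The genes whose log2 CPM over the 12 cell samples was most like that of a chemokine were found among 10223 genes tested in both lines. For Cxcl1 they were Mlkl (r = 0.989), Pls1 (r = 0.988) and Clip4 (r = 0.988), each higher in both E0771-LG groups than in both E0771 groups. For Cxcl3 they were Sema4d (r = 0.981), Selenos (r = 0.977) and Gtpbp10 (r = 0.971), with the same order of the lines. For Cxcl10 they were Slfn2 (r = 0.976), Isg15 (r = 0.974) and Oas1a (r = 0.961), each with a lower mean in shPTN than in shCtrl in both lines. These values describe 4 groups of 3 samples, so each r mixes differences between groups with those within groups, and their parts were not separated.

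In 4T1 tumors all 7 genes were tested, and in MMTV-PyMT tumors 4. Leukocytes and stroma contribute RNA to tumors, and fewer cells of a type cannot be told apart from less RNA per cell. By the length-normalized values of 4T1 tumors with C44, Cxcl16 led (7.28 ± 0.15, SD, n = 3), followed by Cxcl10 (6.17 ± 0.53), Cxcr4 (5.77 ± 0.44), Cxcl1 (4.66 ± 0.16), Cxcl2 (3.18 ± 1.14), Cxcl3 (2.82 ± 1.39) and Cxcl12 (1.52 ± 0.37). Cxcl10 and Cxcr4, Cxcl2 and Cxcl3, and Cxcl3 and Cxcl12 lay within their spread of each other. In MMTV-PyMT tumors with C44 the order in log2 CPM per kb of coding transcripts was Cxcr4 (3.94 ± 0.91), Cxcl16 (3.43 ± 0.31), Cxcl1 (2.48 ± 0.65), Cxcl12 (1.74 ± 0.65), Cxcl10 (−1.62 ± 1.68), Cxcl2 (−3.23 ± 1.17) and Cxcl3 (−3.51 ± 1.84). Each neighbouring pair except Cxcl12 and Cxcl10 lay within its spread, and Cxcl1 and Cxcl12 changed places with the first length.

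With 3B10, 7 of 7 genes had fold changes below 0 in 4T1 tumors (median −0.31, against 0.01 over all genes, of which 48.4% were below 0), but 0 were called. Leaving out 1 tumor turned Cxcl1, Cxcl2 or Cxcl10 above 0 (up to 0.48, 0.054 and 0.11). Cxcr4 came nearest. It stood at 5.31, 6.19 and 5.82 with C44 and at 5.45, 5.11 and 4.79 with 3B10, so that 1 of 3 samples with 3B10 lay within the range of C44. Its change was −0.66 (SE 0.26, 95% interval −1.26 to −0.06), with an unadjusted limma p of 0.0351 and an adjusted p of 0.741. Cxcl3 stood at 3.67, 3.57 and 1.21 with C44 and at 2.14, 2.11 and 1.05 with 3B10. Replicate 3 was the lowest of each group, the groups overlapped, and the change was −1.05 (SE 0.66, adjusted p = 0.889 by limma), or −1.85 to −0.62 with 1 tumor left out. Cxcl1 stood at 4.73, 4.78 and 4.48 with C44 and at 6.33, 3.54 and 3.96 with 3B10, where replicate 1 was above and the others were below all C44 samples. Its change was −0.05 with a 95% interval from −1.56 to 1.46, which holds changes of more than 2-fold in either direction. The changes of Cxcl2, Cxcl12, Cxcl10 and Cxcl16 were −0.41, −0.31, −0.19 and −0.18. Leaving out 1 tumor moved that of Cxcl12 between −0.52 and −0.18 and that of Cxcl16 between −0.24 and −0.068.

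In the same 4T1 tumors limma called 0 markers of leukocytes, stroma or epithelium with 3B10. The sums of the T and NK cell markers and Ptprc were lower in each tumor with 3B10 than in each with C44, and the epithelial sums higher, while the neutrophil, macrophage and endothelial sums overlapped. How often all genes lack such an overlap was not counted, so nothing is read from it. Over all genes 48.4% were below 0 in this comparison. Of T and NK cell markers 9 of 9 were below 0 (median −1.27), and their summed values were 152, 191 and 181 with C44 against 140, 93.4 and 41.1 with 3B10, with Nkg7, Cd3g or Gzmb the most abundant. Of neutrophil markers 7 of 7 were below 0 (median −0.70), with sums of 1185, 1123 and 1965 against 1202, 772.5 and 609.7, and S100a9 or S100a8 was the most abundant. Macrophage markers were below 0 in 10 of 10 (median −0.57), with sums of 12930, 9907 and 12210 against 5638, 10030 and 6253, led by Lyz2. Ptprc, the common leukocyte antigen CD45, changed by −0.72 (adjusted p = 0.722 by limma), from 24.9, 26.2 and 20.0 off the log scale with C44 to 12.5, 18.0 and 12.5 with 3B10. Endothelial markers were below 0 in 5 of 5 (median −0.24), with sums of 96.0, 235 and 135.5 against 103, 190 and 84.8, led by Cdh5. Epithelial markers were above 0 in 5 of 5 tested (median 0.78), with sums of 3192, 3464 and 3451 against 4940, 4460 and 5100, led by Krt18, with Krt5 at the lowest value in 1 sample of each group. Fibroblast markers were above 0 in 5 of 7 (median 0.26), and none of the 4 B cell markers was in the table. No marker other than Krt5 was at the lowest value in a 4T1 tumor, and the part of these cell types in the chemokine values was not tested.

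In MMTV-PyMT tumors the receptor varied more between replicates than between treatments. Cxcr4 stood at 5.41, 5.23 and 3.74 log2 CPM with C44 (815, 723 and 251 reads) and at 5.51, 5.20 and 3.44 with 3B10 (740, 676 and 176 reads). One tumor of each group, replicate 3 in both, lay more than 1 log2 unit below the others. Cxcl12 stood at 3.89, 5.17 and 4.68 with C44 and at 5.51, 4.20 and 3.95 with 3B10, and Cxcl16 at 5.16, 4.87 and 4.54 and at 4.89, 4.80 and 5.16. All 3 overlapped between treatments, with changes of −0.08 (95% interval −1.56 to 1.40), −0.03 (−1.14 to 1.09) and 0.09 (−0.37 to 0.55). Cxcl1 stood at 3.15, 1.97 and 2.10 with C44 and at 1.66, 1.48 and 2.22 with 3B10, an overlap, and its change was −0.62 (SE 0.40, adjusted p = 1.00 by limma). Cxcl2 (1 to 8 reads), Cxcl3 (0 to 6 reads) and Cxcl10 (2 to 20 reads) did not pass the filter. Cxcl3 had 0 reads in 3 of 3 tumors with 3B10 and 1, 6 and 0 reads with C44, and Cxcl10 had 20, 2 and 16 reads with C44 against 4, 3 and 4 with 3B10.

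**Figure D4:**
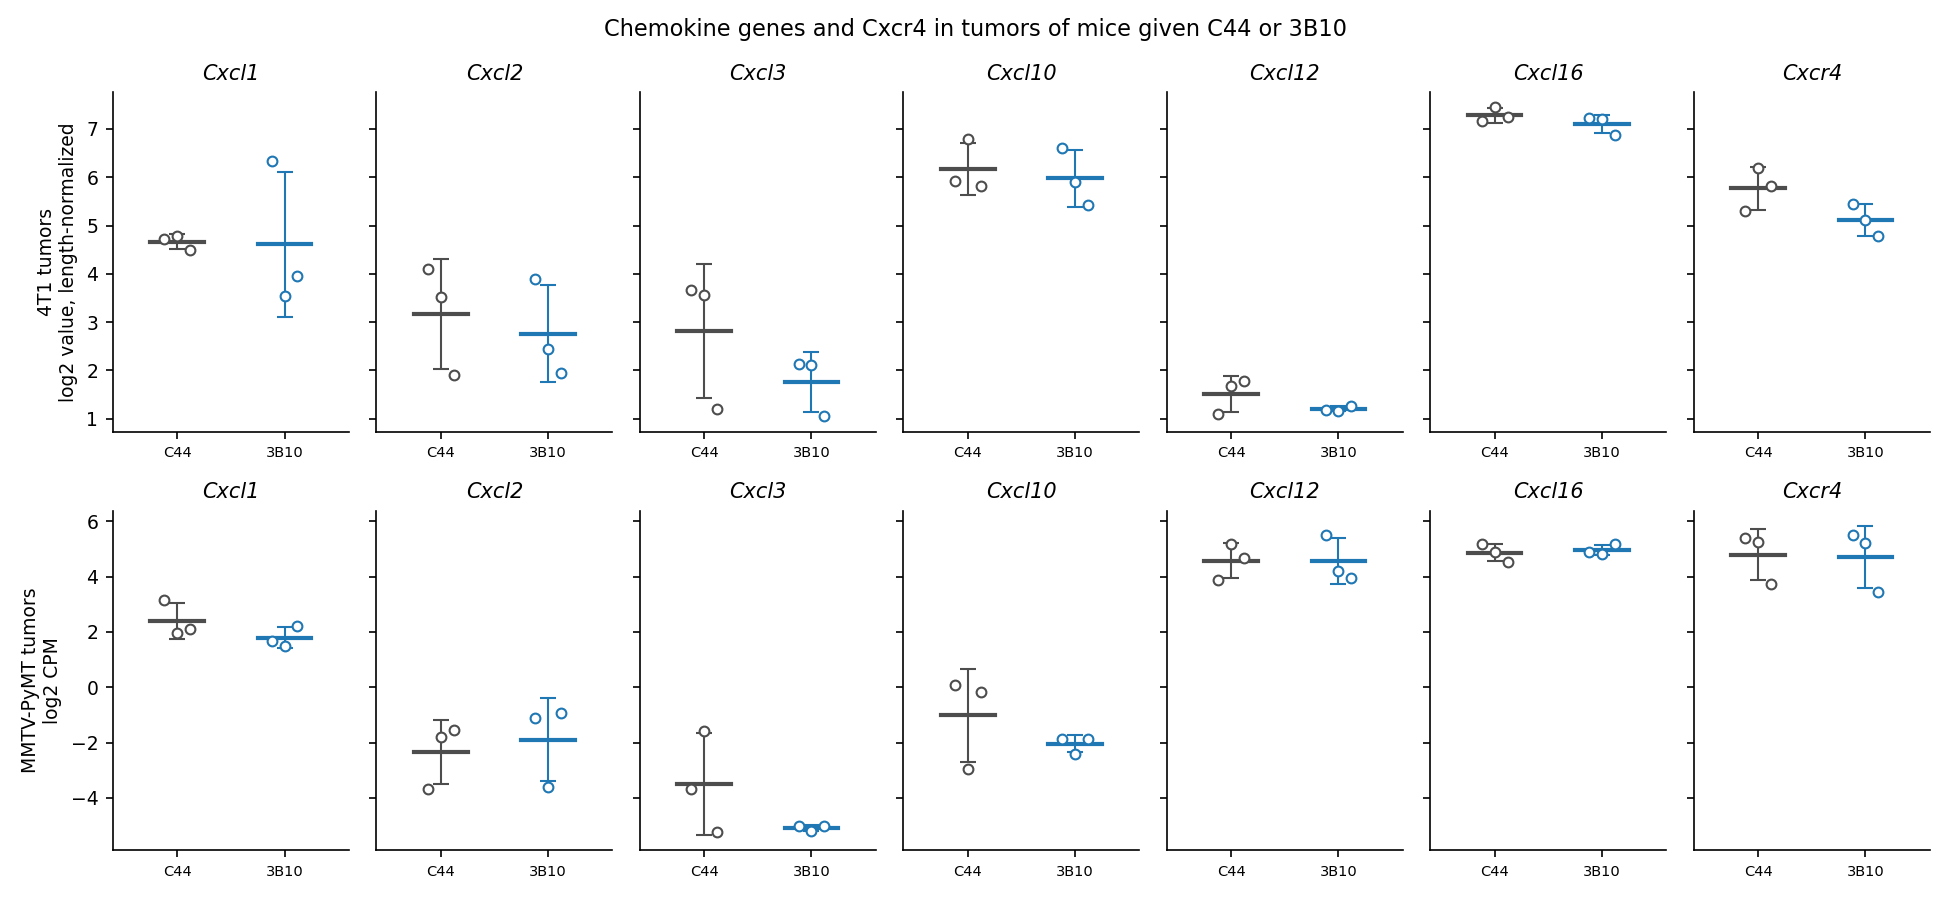
The 7 genes in tumors with C44 (grey) or 3B10 (blue), as length-normalized log2 values in 4T1 (top) and log2 CPM in MMTV-PyMT (bottom), with 1 point per tumor, a bar at the mean and whiskers of 1 SD (n = 3 per group). In each panel where the gene was tested the groups overlap, and in MMTV-PyMT tumors Cxcr4 shows 1 low tumor in each group (3.74 and 3.44).

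Interferon response genes were below 0 in 13 of 13 cases with 3B10 in MMTV-PyMT tumors (median −0.71, against 0.05 over all genes, of which 39% were below 0, with 0 called by limma), and in 4T1 tumors in 6 of 13 (median 0.04). In MMTV-PyMT tumors the mean of the list was 5.24, 4.73 and 5.64 log2 CPM with C44 and 3.66, 4.73 and 5.07 with 3B10, so that replicate 1 of 3B10 stood apart and the other 2 lay within the range of C44. The other CXC and CX3C genes had 8 of 9 below 0 in 4T1 (median −0.30) and 2 of 4 in MMTV-PyMT tumors (median −0.05), and the CXCR4 partners 11 of 13 (median −0.17) and 9 of 13 (median −0.01). In 4T1 tumors 48.4% of all genes were below 0. Cxcr6, the receptor of CXCL16, changed by −1.18 in 4T1 tumors (SE 0.54, adjusted p = 0.803 by limma). Of the cell type markers tested in MMTV-PyMT tumors, 2 of 3 for T and NK cells, 2 of 3 for neutrophils, 6 of 10 for macrophages, 1 of 5 for endothelium, 4 of 6 for epithelium and 7 of 7 for fibroblasts were below 0, with 0 called by limma. Ptprc changed by 0.01.

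Among leukocyte markers in the cultured cells, Ptprc had 0 to 13 reads per sample. S100a9, Csf3r and Retnlg, markers of neutrophils, were at 0 reads in 12 of 12 samples, and S100a8, the most abundant of that list, was not called in either line. Of 11 T and NK cell markers 9 were in the table, and Gzma was at 0 in 12 of 12 samples, with Lck the most abundant in each. Lck rose by 0.82 in E0771shPTN, where it alone of the list was tested, and by 1.32 in E0771-LGshPTN. Cd3d and Cd8b1, also called higher there, were below 1 CPM in each E0771-LGshCtrl sample, so they passed the filter through shPTN alone and nothing is read from their calls. The summed level of the list was 6.20, 3.97 and 5.42 CPM in E0771shCtrl, 8.18, 7.70 and 8.25 in E0771shPTN, 3.70, 6.23 and 3.39 in E0771-LGshCtrl and 9.57, 11.7 and 12.9 in E0771-LGshPTN. Of macrophage markers 3 of 10 were tested in E0771, where 1 was called with shPTN, Lyz2 (2.23, SE 0.16, adjusted p = 1.55e-05 by limma). In E0771-LG 4 of 10 were tested, with 2 higher and 2 lower with shPTN, and C1qa was at 0 in 12 of 12 samples. The summed level of that list was 17.0 to 32.4 CPM in E0771shCtrl, 35.7 to 48.5 in E0771shPTN, 24.7 to 27.7 in E0771-LGshCtrl and 18.7 to 25.9 in E0771-LGshPTN, led by Lyz2, Cd68 or Cd14. Of the epithelial markers Krt8 was the most abundant in each cell sample and Krt5 was at 0 in 11 of 12 samples, and limma called 0 of 2 tested in E0771shPTN. In E0771-LGshPTN Krt8 and Epcam were called higher, and so was Krt18, which was below 1 CPM in each E0771-LGshCtrl sample and passed through shPTN alone. Fibroblast markers were called higher in 5 of 5 tested in E0771shPTN, where 8.9% of all genes were called higher and 11.7% lower. In E0771-LGshPTN 1 of 6 was called higher and 2 were lower, where 24.3% of all genes were called higher and 22.1% lower. Of these, Col1a2 in E0771 and Dcn in E0771-LG needed the shPTN samples to pass the filter, as Cd68 did in E0771-LG, and Col1a1 was below 1 CPM in each E0771-LGshPTN sample, so nothing is read from the counts. Tie1, the only endothelial marker tested in E0771, was higher with shPTN by 0.52 (adjusted p = 0.0497 by limma), where 20.6% of all genes were called. In E0771-LGshPTN limma called 0 of 2 endothelial markers, against 46.4% of all genes. The part of these marker genes in the chemokine values was not tested.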

How the data were processed

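The authors sequenced RNA on an Illumina HiSeq in paired-end mode, aligned it to mm10 with HISAT2, assembled with StringTie and tested with Rsubread and edgeR, and their sample records also name featureCounts and limma, without versions. The deposited table holds log2 values of 12091 genes, and the step by which the authors made these log2 values and chose the genes is not given in the sources used here. In 18 samples whole reads were recovered (100% whole within 0.02, for genes under 200 reads, with an offset of 0.5 reads). The 4T1 values had no such steps and were treated as length-normalized. The plan allowed for counts, but the table holds log2 values, so limma 3.58.1 (R 4.3.3) was run on them with robust, trended moderation and Benjamini-Hochberg adjustment at 0.05. Python 3.11.15, numpy 2.4.6, pandas 2.3.3 and matplotlib 3.10.9 did the rest.

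Alternatives were pseudocounts of 1 and 0.1, median-of-ratios scaling, quantile normalization, a filter of at least 5, no filter, moderation that is not robust, a joint fit, a replicate block, voom on recovered reads and leaving out each sample, and gene length over coding transcripts was added after seeing the data. Genes and lists were chosen with earlier results of these data known. In each list at most 6 genes were named, those called in most comparisons, with ties by the largest fold change. Positions are from GENCODE M21 and promoters from RefSeq on GRCm38.p6, which matched 6 of 7 genes. Not analysed here, because their symbols are not in the table, are among others Cxcl5, Cxcl13, Cxcl15, Cxcl17, Ppbp, Cxcr1, Cxcr2, Cxcr5, Ackr1, Ackr2, Ackr4, Ly6g, Mmp8, Mx1, Cd4, Cd247, Cd79a, Cd79b, Ms4a1, Tek and Vwf.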

Additional observations from a re-analysis of the deposited data

Results flagged for a closer look

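The effect of the PTN shRNA on Cxcl1 differed between the 2 lines by limma's test of the difference, a call that 2 alternatives lost. Cxcl1 changed by −1.54 in E0771 cells and by 0.13 in E0771-LG cells, and the test of the difference gave 1.67 (SE 0.47, 95% interval 0.64 to 2.70, adjusted p = 0.0194 by limma). The adjusted p was 0.0854 in a joint limma fit of all 24 samples and 0.0597 with voom. The level of Cxcl1 in E0771shCtrl cells was 208 to 380 reads, against 6985 to 12291 reads in E0771-LGshCtrl cells.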

How the results depend on the processing

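Of 481 checks of fold changes 439 kept direction and call, 10 were weaker, 2 stronger and 30 reversed. With every sample kept, these numbers were 268, 4, 2 and 3 of 277.

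A joint limma fit of all 24 samples called 6 genes in 4T1 tumors. In E0771 cells with shPTN it called 912 genes and 0 of the 7 chemokine genes, with adjusted p of 0.0528 for Cxcl1 and 0.245 for Cxcl10. For the interaction it called 2368 genes and 0 chemokine genes (Cxcl1 adjusted p = 0.0854). Voom called 0 chemokine genes for the interaction (Cxcl1 1.70, adjusted p = 0.0597). Quantile normalization turned Cxcl16 in E0771-LGshPTN to −0.22. With a pseudocount of 1 the interaction of Cxcl2 was −0.032 and of Cxcl16 0.018, and Cxcl16 between the lines was 0.65.

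A replicate block in limma called 2 chemokine genes in E0771-LGshPTN, Cxcl3 (−0.38, adjusted p = 0.0141) and Cxcl10 (−0.97, adjusted p = 0.00293). Replicate numbers did not pair the samples: same-number r ranged from −0.117 to 0.237 in E0771-LG, and in no comparison did each sample correlate best with its own number.

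Leaving out 1 sample gave −0.91 to 0.48 for Cxcl1, −1.05 to 0.054 for Cxcl2 and −0.51 to 0.11 for Cxcl10 in 4T1 tumors, with 0 to 2 genes called (2 without replicate 1 of 3B10). In MMTV-PyMT tumors it gave −0.50 to 0.28 for Cxcl12, −0.066 to 0.24 for Cxcl16 and −0.61 to 0.56 for Cxcr4. In E0771shPTN 1171 to 2166 genes were called (1268, 1171 and 1238 without shCtrl replicates 2 and 3 and shPTN replicate 3). Cxcl1 in E0771-LGshPTN gave −0.054 to 0.41 and Cxcl10 between the lines −0.35 to 0.40. Cxcl16 between the lines gave 1.12 to 1.35 and was not called in 6 of 6 (limma adjusted p 0.0516 to 0.0807). The interaction gave −0.35 to 0.071 for Cxcl3, −0.12 to 0.63 for Cxcl10 and −0.19 to 0.045 for Cxcl16. It also moved Cxcl3 in 4T1 tumors from −1.85 to −0.62, Cxcl1 in MMTV-PyMT tumors from −0.84 to −0.25, Cxcl3 in E0771shPTN from −0.42 to −0.026, and in E0771-LGshPTN Cxcl2 from −0.60 to −0.026, Cxcl3 from −0.51 to −0.17 and Cxcl10 from −1.24 to −0.49. The cause was not tested.

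Limits are 3 samples per group, a single shRNA construct, separately selected populations, bulk RNA and unknown depth of the 4T1 tumors.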

Other observations

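Cxcl9, which encodes another interferon-induced ligand of CXCR3, did not pass the filter in cells or in MMTV-PyMT tumors. It had 0 reads in each E0771shCtrl sample, 0 to 2 in E0771shPTN, 5 to 13 reads in E0771-LGshCtrl and 7 to 14 reads in E0771-LGshPTN. In MMTV-PyMT tumors it had 19 to 22 reads with C44 and 3 to 5 reads with 3B10. Pf4, a platelet chemokine chosen after its values were seen, had 0 to 3 reads in E0771shCtrl and 12 to 22 reads in E0771shPTN. In E0771-LG cells it had 0 reads in replicate 2 of shCtrl and in replicate 2 of shPTN, and reads in the other samples. These differences were not tested.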
